A study of Mus musculus with 2 samples.

Results

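Conventional type 2 dendritic cells (cDC2) of mouse melanoma were described from droplet single-cell RNA sequencing, and 215 cells of 20216 were taken as cDC2, 146 of 11238 in one library and 69 of 8978 in the other. The first library holds CD45+ cells of B16-F10 tumours whose melanoma cells lack DGAT1, an enzyme that joins a fatty acid to diacylglycerol to make triglyceride. The second holds CD45+ cells of tumours of WT B16-F10 cells, a transplantable mouse melanoma line. Tumours grew under the skin and were taken on day 14, 3 per group, and viable CD45+ single cells were sorted after digestion with collagenase D and DNase I. Per the labels the edit is in the tumour cells and not in the host, so the cDC2 of neither group carry it. The sources used here do not state the strain, age or sex of the mice, or how many edited clones were used. Each group is 1 library in which cells cannot be traced to their tumour. There was therefore no replicate to test against, and each value describes these 2 libraries.

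A cell counted as cDC2 when it held at least 2 unique molecular identifiers (UMIs) of Cd209a, the gene of a DC-SIGN family lectin, at least 5 UMIs of Cd209a plus H2-DMb2, a chaperone gene of MHC class II loading, and no UMI of the cDC1 genes Xcr1 and Clec9a. Cells were left out when they held 6 or more UMIs of Ccr7, Fscn1 and Cacnb3 (mature dendritic cells), more than 1 of Cd79a and Ms4a1 (B cells) or of the Cd3 genes (T cells), or any of Siglech (plasmacytoid dendritic cells). A sum of 5 or more UMIs of Inhba, Egln3, Pdpn and Slc7a2, or 10 or more UMIs of the C1q genes per 10000, also left a cell out. The members were thus chosen by their own UMIs of these genes, whose levels are no result. The gate is narrow. In the knockout and WT libraries 389 and 153 cells held at least 2 Cd209a UMIs, 311 and 125 also passed the sum of 5, 177 and 85 had no cDC1 gene, and 146 and 69 passed every step. Monocytes (852 and 403 cells), gated on Ly6c2, Ccr2 and Csf1r, and cDC1 (200 and 172 cells), gated on Xcr1 and Clec9a, served as the populations set beside them. Cells were left out of both by the same limits as for cDC2, from Ccr7, Fscn1 and Cacnb3 to the C1q genes. The monocyte gate also required no UMI of Xcr1, Clec9a or the natural killer (NK) cell gene Ncr1. It further required fewer than 2 UMIs of Cd209a and fewer than 5 of Cd209a plus H2-DMb2. The cDC2 and cDC1 gates had no limit on Ncr1. In each pair of values the first is from the knockout library. Levels are in CPM, a gene's UMIs for each 1000000 UMIs of the population in that library, and ratios are knockout over WT. Intervals are exact at 95% and hold counting error alone.

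Dendritic cells take up material in tissues and present pieces of it to T cells. The cDC2 branch depends on the transcription factor IRF4, carries SIRPα and CD11b on its surface and is known mainly for presenting peptides on MHC class II to CD4 T cells, while cDC1 depend on IRF8 and BATF3 and are known for cross-presentation to CD8 T cells. In tumours, cDC2 share several surface genes with monocyte-derived cells, so that markers of both lineages are needed to tell them apart.

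The libraries held 202946827 and 235652476 UMIs. Cells that passed the quality limits had medians of 11103 and 14866 UMIs. The cDC2 had medians of 14283 and 15893 UMIs (2808 to 59479 and 2051 to 63311) and of 3896 and 3964 genes, and 2425668 and 1236673 UMIs in all. No cDC2 barcode was shared between the libraries, and 1 barcode of the knockout cDC2 was among the 25 quality barcodes that both libraries hold. Scrublet, a doublet caller run on each library, marked 335 and 177 cells, of which 0 and 1 were cDC2. RNA free in the suspension was estimated from melanoma genes at 5.19% and 5.65% of the UMIs of cDC2. Over all genes compared the median log2 ratio was 0.044 in cDC2.

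The label was checked on genes the gate did not use. Zbtb46, a transcription factor gene that separates conventional dendritic cells from monocytes, stood at 262 and 188 CPM in cDC2 against 0.930 and 3.88 CPM in monocytes. A Zbtb46 UMI was found in 83.6% and 79.7% of cells, or 44.1% and 31.3% after thinning of each cell to 3000 UMIs. In monocytes, which should lack the gene and had medians of 10434 and 12125 UMIs, it was found in 1.06% and 2.48% of cells, or 0.354% and 1.24% after thinning. Irf4 was at 53.2 and 52.6 CPM in cDC2, 9.92 and 3.70 CPM in monocytes and 14.5 and 9.11 CPM in cDC1. Clec10a, a galactose-binding lectin gene, and Kmo, which encodes the kynurenine 3-monooxygenase of tryptophan breakdown, were at 374 and 323 CPM and at 476 and 335 CPM, against 19.5 and 14.6 CPM and 16.1 and 15.3 CPM in monocytes. Batf3, a factor gene of the cDC1 branch, was lower in cDC2 than in cDC1, with 58.1 and 55.8 CPM against 154 and 158 CPM. Flt3, the receptor gene of the main dendritic cell growth factor, was present in cDC2 at 77.1 and 64.7 CPM but below the 239 and 263 CPM of cDC1. Over whole lists some genes went the other way. Of 15 cDC2 identity genes outside the gate, 12 were at least 1.5-fold higher than in monocytes in both libraries and 3 lower. The shares of all genes were 14.4% and 13.5%. Against cDC1, 9 were higher and 1 lower, where 6.17% and 8.31% of all genes were. Of 10 genes of the Clec10a and Clec12a subset of cDC2, 4 were higher than in monocytes and 5 lower. Sirpa was lower, at 234 and 249 CPM in cDC2 against 414 and 397 CPM in monocytes.

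Monocyte genes were low in cDC2 but not absent. Ly6c2, a surface antigen gene of inflammatory monocytes, was at 72.1 and 78.4 CPM in cDC2 and 1236 and 1186 CPM in monocytes, where it is part of the gate. In cDC1 Ly6c2 was at 79.8 and 81.3 CPM, so it was no higher in cDC2 than there. Lyz2, the lysozyme gene of monocytes and macrophages, was at 256 and 479.5 CPM against 6499.5 and 7358 CPM in monocytes and 354 and 393 CPM in cDC1. Fcgr1, the gene of the high-affinity IgG receptor, was at 110.1 and 155 CPM in cDC2 and 72.0 and 60.9 CPM in cDC1. A UMI of Ly6c2 or Fcgr1 was seen in 109 of 146 and 53 of 69 cDC2. Of 18 monocyte genes compared, which include those of the monocyte gate, 17 were at least 1.5-fold lower in cDC2 than in monocytes in both libraries and 0 higher, against 13.5% of all genes lower and 14.4% higher. Against cDC1, 8 of the 18 were higher in cDC2 and 0 lower, where 6.17% and 8.31% of all genes were.

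**Figure D1:**
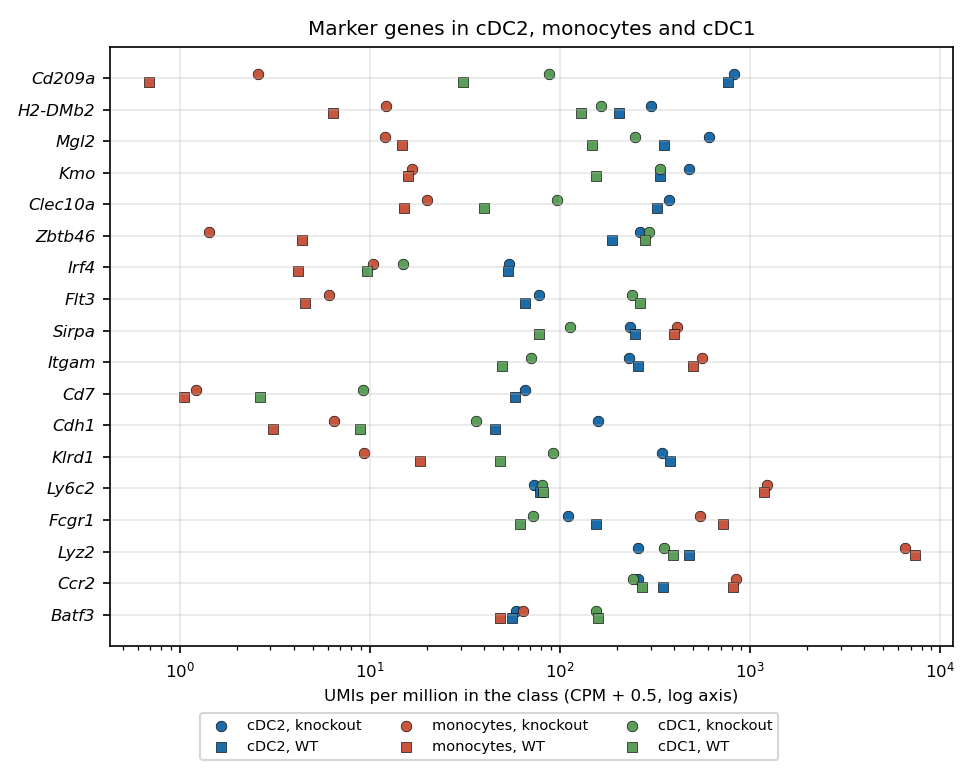
Levels of 18 marker genes (rows) as CPM + 0.5 on a log axis in cDC2 (blue), monocytes (red) and cDC1 (green), with circles for the knockout library and squares for the WT library. Zbtb46, Klrd1 and Clec10a lie far to the right of the monocyte points in cDC2, while Lyz2 and Ly6c2 lie to the left of them.

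Few genes set cDC2 apart from both neighbours at once. At least 1.5-fold higher than in monocytes and than in cDC1 in both libraries were 195 of 9818 genes (1.99%). With at least 25% of cDC2 holding a UMI in both libraries, the 10 with the largest margin were the lectin gene Cd209c, Cd7, Ddr1, Cdh1, Clec10a, Klrd1, Irf4, Ctnnd2, Ifitm1 and Stat4. Cd209c stood at 86.6 and 29.9 CPM in cDC2, had 0 UMIs in the monocytes of both libraries, and was at 8.51 and 2.16 CPM in cDC1. It lies near Cd209a in the same lectin cluster (Cd209a at chr8:3743397-3748984 and Cd209c at chr8:3940222-3954746, mm10), and reads of such close paralogs can be split between them in counting.

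Adhesion genes formed part of this set. Cdh1, the gene of E-cadherin at chr8:106603351-106670246, was at 158 and 45.3 CPM in cDC2 against 5.99 and 2.59 CPM in monocytes and 35.9 and 8.39 CPM in cDC1. Ctnnd2, which encodes delta-catenin, a partner of cadherins, was at 502 and 487 CPM against 5.37 and 28.3 CPM and 145 and 111 CPM. Ddr1, a collagen receptor kinase gene, was at 82.5 and 63.1 CPM against 2.89 and 2.40 CPM and 11.7 and 6.47 CPM. In each of these the 2 libraries of cDC2 lay above all 4 values of the other populations. The genes were picked for their margin over both populations in both libraries, so this order is a description and no check.

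Genes better known from natural killer cells were in the set too. Klrd1, the gene of the lectin-like receptor CD94, was at 343 and 377 CPM in cDC2, 8.78 and 17.9 CPM in monocytes and 92.0 and 47.9 CPM in cDC1. Cd7, a lymphocyte surface gene, was at 64.7 and 57.4 CPM in cDC2 and 0.723 and 0.555 CPM in monocytes. The monocyte gate left out cells with a Ncr1 UMI and the cDC2 gate did not, and the part of this in the contrast was not tested. Defining NK genes were scarce: Ncr1, an activating NK receptor gene, was at 7.83 and 6.47 CPM and Klrb1c at 9.89 and 12.9 CPM, and at least 2 UMIs of these were found together in 3 knockout and 2 WT cDC2. Those cells held 94.8% and 98.4% of the UMIs of the granzyme gene Gzma, which is therefore not described as a cDC2 gene here.

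Cell division genes placed cDC2 between their neighbours. Of 25 cell cycle genes, 24 were at least 1.5-fold higher in cDC2 than in monocytes in both libraries and 0 lower. Against cDC1, 14 of 25 were lower, where 8.31% of all genes were, and 0 higher, where 6.17% were. Of 14 MHC class II presentation genes, 10 were higher in cDC2 than in monocytes and 2 lower, against 14.4% and 13.5% of all genes. H2-Aa, the alpha chain gene of I-A, was at 5959.6 and 7381 CPM in cDC2, 1422 and 1887 CPM in monocytes and 4566 and 6215 CPM in cDC1. Of 16 chemokine genes, 14 were lower in cDC2 than in monocytes and 0 higher, against the same shares of all genes.

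The 2 libraries differed in how many cDC2 they held. The share of cDC2 among quality cells was 1.30% (1.10 to 1.53) in the knockout library against 0.769% (0.598 to 0.972) among WT cells, and their ratio was 1.69 (1.26 to 2.28). The intervals of both shares do not overlap, but they cover counting only, and the spread between tumours is not known. Monocytes had a ratio of 1.69 (1.498 to 1.91), so the number of cDC2 per monocyte was the same in both libraries, 0.171 and 0.171. cDC1 had a ratio of 0.929 (0.754 to 1.15), and there were 0.730 (0.586 to 0.908) and 0.401 (0.299 to 0.533) cDC2 per cDC1. The knockout library was the shallower one, and a gate on UMIs per 10000 instead of raw UMIs gave 139 and 46 cells, a ratio of 2.41 (1.72 to 3.45). With every cell thinned to 3000 UMIs, 54 and 27 cells passed the gate and the ratio was 1.58, with an interval of 0.977 to 2.61 that includes 1. With cDC2 that carried NK or macrophage genes left out, an alternative chosen after seeing the data, 131 and 51 cells remained and the ratio was 2.05.

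Cells just inside and just outside the gate were few. With exactly 2 Cd209a UMIs there were 4 and 4 cells inside, and with a sum of exactly 5 there were 9 and 7. Outside, 6 and 10 cells had 1 Cd209a UMI and a sum of at least 5, and 13 and 3 had at least 2 Cd209a UMIs and a sum of 4. The cells with 1 Cd209a UMI had Kmo at 619 and 346 CPM and Zbtb46 at 443 and 269 CPM, so cells that express these genes lie outside the gate too.

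Dgat1, the gene edited in the tumour cells, was at 16.9 and 22.6 CPM in cDC2 (41 and 28 UMIs), a ratio of 0.747 (0.451 to 1.25). The host cells carry no edit, so this value checks neither the edit nor the labels.

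Of 7427 genes with at least 50 UMIs over the cDC2 of both libraries, 597 (8.04%) were at least 1.5-fold higher in the knockout library and 332 (4.47%) at least 1.5-fold lower. Genes at or past this fold by their own count and with counting intervals that excluded 1 were 456 (6.14%) and 254 (3.42%). In monocytes the same fold was passed by 6.70% and 3.72% of genes, and in cDC1 by 9.34% and 4.68%, so the shares of cDC2 lay between those of the other populations. The 12 genes that led in each direction by the counting bound of the ratio are described next. Free RNA was under 25% of their UMIs in the library where they were higher, and was not limited in the other. There it would give from 0.184% of the WT Cdh1 to 100% of the knockout Cacna1d UMIs, with 72.7% for Spp1 and 61.0% for Hmox1.

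Gfra2, the receptor gene of the growth factor neurturin, was at 61.4 and 4.04 CPM, from 149 UMIs in 35 cells and 5 UMIs in 4 cells. Plet1, a surface protein gene, was at 169 and 37.2 CPM with a ratio of 4.56 (3.35 to 6.32). Cdh1 was at 158 and 45.3 CPM with a ratio of 3.50 (2.64 to 4.71), so one of the genes that set cDC2 apart was itself higher in the knockout library. Cd209c, of the same set, had a ratio of 2.89 (2.03 to 4.22).

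Cish, a feedback inhibitor gene of STAT5 signalling, was at 80.0 and 19.4 CPM and had a ratio of 4.12 (2.69 to 6.59). Its level was spread over cells, with the 5 richest knockout cells holding 18.6% of its UMIs. Vdr, the vitamin D receptor gene, was at 69.7 and 21.0 CPM, and Ikzf2, the gene of the transcription factor Helios, at 74.2 and 16.2 CPM. Kynu, the kynureninase gene, was at 244 and 92.2 CPM, and Cyp7b1, an oxysterol hydroxylase gene, at 218 and 62.3 CPM. Cd226, an activating receptor gene of lymphocytes, was at 60.2 and 16.2 CPM, the nuclear protein gene Aff3 at 160.4 and 49.3 CPM, and Tmtc2 and Cldnd1 at 150.5 and 44.5 CPM and at 151 and 53.4 CPM. Markers of T and NK cells moved the same way, with a summed level of 223 and 152 CPM over the listed genes outside the gate. The 3 Cd3 genes among the 15 listed were not in this sum. Gzma and Gzmb, 2 of the 3 markers outside the gate with enough UMIs, were at least 1.5-fold higher, where 8.04% of all genes were. Of the Gzma UMIs, 94.8% and 98.4% lay in the 3 knockout and 2 WT cells with NK genes. Without the cells that carried NK or macrophage genes the log2 ratios were 2.41 for Cd226 and 1.94 for Ikzf2, against 1.90 and 2.20 with them.

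Most of these genes were higher in knockout cDC1 too. Of the 12 genes, 10 were also at least 1.5-fold higher in knockout cDC1, where 9.34% of all genes were, and 5 in knockout monocytes, where 6.70% were. Vdr was at 61.6 and 8.15 CPM in cDC1 and 37.0 and 13.5 CPM in monocytes, and Cish at 58.8 and 16.3 CPM and 43.7 and 10.5 CPM. Cyp7b1 was at 45.1 and 1.92 CPM in cDC1. Aff3 went the other way in monocytes, at 4.96 and 9.98 CPM. Several rested on few cells. In the knockout library 5 cells held over 50% of the UMIs for 2 of the 12 genes, Cd226 (56.2%) and Cyp7b1 (53.4%). For Plet1 it was 49.9%. In the WT library 5 cells held 97.8% of the Plet1 UMIs and 92.2% of the Cyp7b1 UMIs, but only 6 and 8 WT cells had any.

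**Figure D2:**
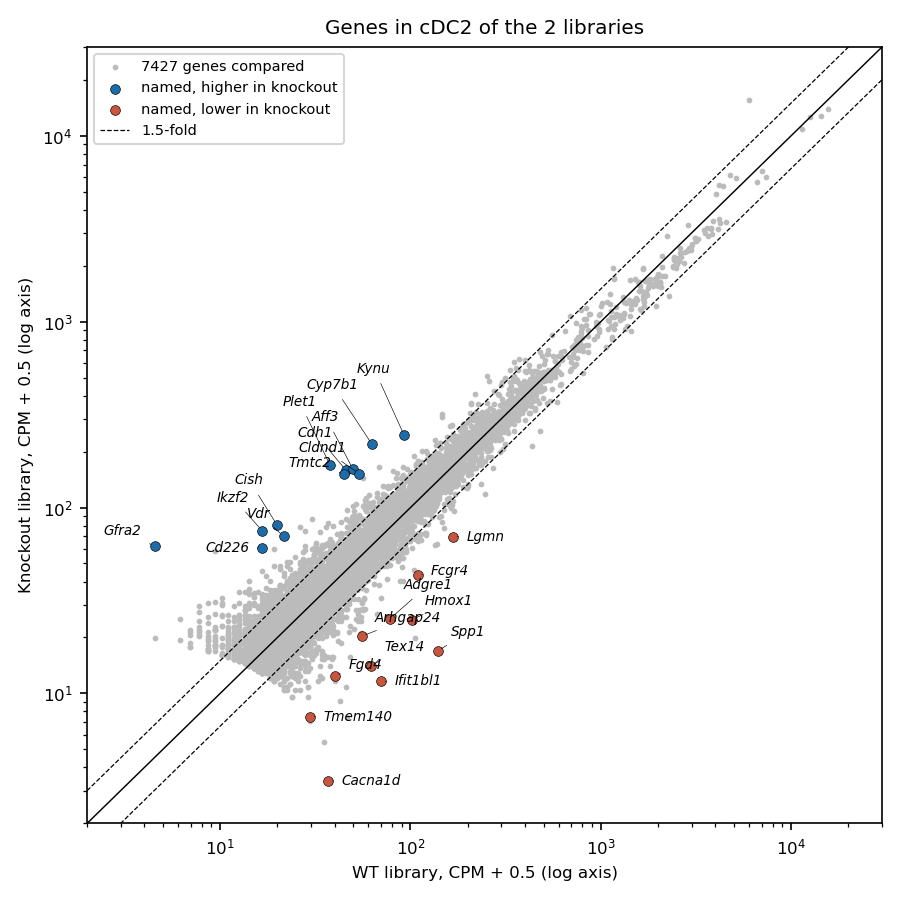
Each point is a gene in cDC2, with its level in the WT library on the horizontal axis and in the knockout library on the vertical axis (CPM + 0.5, both log axes). The solid line marks equal levels and the dashed lines a 1.5-fold difference. The 12 named genes above the lines include Kynu and Gfra2, and the 11 below include Spp1 and Cacna1d.

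Sterol and fatty acid synthesis genes were higher in knockout cDC2 when UMIs were summed. Of 22 compared, 12 were at least 1.5-fold higher and 0 lower, where 8.04% and 4.47% of all genes were, and the median log2 ratio was 0.62. The same list had medians of 0.10 in monocytes and 0.22 in cDC1. The difference between the populations was not tested. The list's summed level was 1702 and 1130.5 CPM in cDC2. Per cell it ran from 0 to 86.4, median 12.2, UMIs per 10000 in the knockout library and from 0.760 to 80.7, median 8.26, in the WT library, so the 2 sets of cells overlapped over nearly their whole range.

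A regulator and early enzymes of the pathway stood among the higher genes. Srebf2, which encodes the transcription factor SREBP2 that switches on sterol synthesis, was at 196 and 121 CPM with a ratio of 1.61 (1.34 to 1.95). Hmgcs1, a synthase gene at the start of the pathway, was at 150.1 and 103 CPM with a ratio of 1.46 (1.19 to 1.80), just under 1.5-fold. Idi1 and Fdps, which make and join isoprenoid units, were at 79.6 and 48.5 CPM and at 216 and 135 CPM. In monocytes Fdps was at 91.6 and 109 CPM, lower in the knockout library.

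The sterol branch followed. Sqle, the squalene epoxidase gene, was at 55.7 and 30.7 CPM with a ratio of 1.81 (1.26 to 2.67), Fdft1, the squalene synthase gene, at 54.4 and 34.8 CPM, and Cyp51, which removes a methyl group of lanosterol, at 108 and 70.3 CPM. Msmo1 and Nsdhl, which act after Cyp51, were at 77.9 and 50.1 CPM and at 24.3 and 12.9 CPM. Insig1, which holds back the sterol-sensing factors, differed by less than its counting error, with a ratio of 1.16 (0.742 to 1.84).

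Fatty acid genes were mixed in precision. Scd2, a stearoyl-CoA desaturase gene, was at 78.3 and 46.1 CPM with a ratio of 1.70 (1.26 to 2.33). Fasn, the fatty acid synthase gene, had a ratio of 1.66 (0.982 to 2.95) and Acaca, which makes its substrate, one of 1.30 (0.979 to 1.74), so the interval of both reached below 1. Acly, the citrate lyase gene, was at 113 and 85.7 CPM. Srebf1, the factor gene for fatty acid synthesis, was level at 21.0 and 19.4 CPM.

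The size of this difference depended on how cells were weighted. Summed UMIs give more weight to cells with much RNA. With the mean of per-cell CPM the median log2 ratio was 0.36 and 3 of 22 genes were 1.5-fold higher, a share near the 13.05% of all genes in that setting, where the median over all genes was 0.10. Without cells that held Mki67 or Top2a the median was 0.54 with 7 of 19 past 1.5-fold (11.9% of all genes), and without cells that carried NK or macrophage genes it was 0.55 with 8 of 21 (12.3% of all genes). Without cells that held Ly6c2 or Fcgr1, 7 genes could be compared, of which 3 were higher and 1 lower, against 21.6% and 8.03% of all genes.

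**Figure D3:**
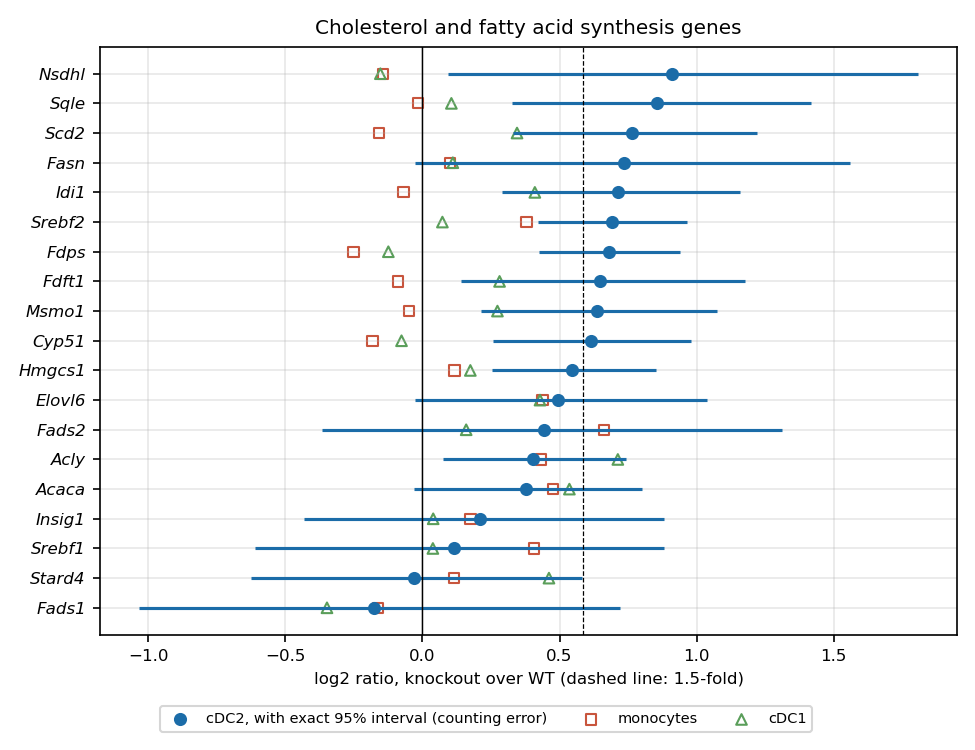
The log2 ratio of knockout over WT for 19 of the sterol and fatty acid synthesis genes, in cDC2 as filled circles with exact 95% counting intervals, in monocytes as open squares and in cDC1 as open triangles. The dashed line marks 1.5-fold, and 10 of the 19 filled circles lie at or beyond it.

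Since genes of this list were higher together, the promoters in the RefSeq table (GRCm38.p6, 250 bases before to 50 after a start) were searched for TCACNCCAC, a core of the sterol regulatory element, on both strands. A promoter was given for 6 of the 12 higher genes and for 7 of the other 10. The motif was in 0 of the 6 and in 1 of the 7, against 1.44% of 27025 genes. The match was in Hmgcs1, shown here over the 250 bases before its start as the one synthesis gene with the motif (chr13:119690101-119690350, plus strand, motif in capitals, starting at base 114).
Hmgcs1: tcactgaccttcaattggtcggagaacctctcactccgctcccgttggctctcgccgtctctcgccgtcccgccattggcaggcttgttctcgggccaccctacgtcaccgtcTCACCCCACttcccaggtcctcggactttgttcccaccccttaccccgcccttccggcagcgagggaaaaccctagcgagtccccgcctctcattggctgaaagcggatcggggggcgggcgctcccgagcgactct
A match is no proof of a site, and these windows leave out most of each gene's regulatory sequence.

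Other lipid genes did not move as a block. Of 19 lipid storage and uptake genes, 3 were at least 1.5-fold higher and 4 lower in the knockout library. Of all genes 8.04% were higher and 4.47% lower. Plin2, which coats lipid droplets, was at 63.5 and 137 CPM with a ratio of 0.462 (0.369 to 0.578), and Fabp5, a fatty acid carrier gene, at 162 and 269 CPM. In the WT library 5 cells held 44.7% of the Plin2 and 71.8% of the Fabp5 UMIs. Lipe, the hormone-sensitive lipase gene, was at 61.0 and 40.4 CPM. Of 17 genes of ferroptosis and iron handling, 2 were higher and 3 lower, against the same shares of all genes. Ferroptosis is an iron-dependent form of cell death by lipid peroxidation. Acsl4, which loads polyunsaturated fatty acids into membrane lipids, was at 88.6 and 48.5 CPM, and Ftl1, the ferritin light chain gene, at 1377 and 2275 CPM.

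Genes of tryptophan breakdown were seen in cDC1 as well as in cDC2. Kmo was found in 95.2% and 85.5% of cells, or 69.7% and 56.7% after thinning of each cDC2 to 3000 UMIs, against 12.6% and 9.68% of cells, or 4.48% and 2.49% after thinning in monocytes. In cDC1, whose cells had medians of 19741 and 22742 UMIs, it was found in 90% and 82.0% of cells, or 53.8% and 31.2% after thinning, with 335 and 155 CPM. Of 7 genes of this list, 5 were at least 1.5-fold higher than in monocytes and 1 higher than in cDC1 in both libraries. The shares of all genes were 14.4% and 6.17%. The knockout over WT ratio of Kmo was 1.42 (1.27 to 1.59). Kynu, the next enzyme's gene, had a ratio of 2.64 (2.16 to 3.26) and stood at 20.3 and 10.5 CPM in monocytes and 268 and 99.7 CPM in cDC1. Ido1, which starts the pathway, had 1 UMI in the knockout and 0 in the WT cDC2. Of the 6 genes of this list compared, Kynu was the 1 that passed 1.5-fold upward, as did 8.04% of all genes. Il4i1, an amino acid oxidase gene, at 21.0 and 35.6 CPM, was the 1 that passed it downward, as did 4.47% of all genes.

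Some genes of macrophages and monocytes were lower in knockout cDC2. Of 11 lipid-associated macrophage genes, 6 were at least 1.5-fold lower and 0 higher, against 4.47% and 8.04% of all genes, and the median log2 ratio was -0.66. Without the 1 WT cDC2 that Scrublet marked, 3 of the 11 were lower and 0 higher, with a median of -0.47. The shares of all genes were then 4.26% and 8.11%. The lipid-associated macrophage list was also lower in the neighbours, with medians of -0.45 in monocytes and -0.54 in cDC1. Of 13 monocyte genes, 4 were lower and 0 higher in cDC2, with a median of -0.43. That list had medians of -0.088 in monocytes and 0.18 in cDC1. In cDC2, levels of single genes were as follows. The lysosomal protease gene Ctsb was at 214 and 433 CPM, and the lysozyme gene Lyz2 at 256 and 479.5 CPM. Plac8, a gene high in monocytes, was at 884 and 1444 CPM, and little of it came from few cells: the 5 richest held 14.6% and 23.2% of its UMIs.

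The leading lower genes were of several kinds. Spp1, the osteopontin gene, was at 16.5 and 139 CPM, and Hmox1, which breaks down haem, at 24.3 and 101 CPM. Adgre1, which encodes F4/80, was at 24.7 and 77.6 CPM, Lgmn, a lysosomal protease gene, at 69.3 and 167 CPM, and Fcgr4, an IgG receptor gene, at 42.9 and 108 CPM. Ifit1bl1, an interferon-induced gene, was at 11.1 and 69.5 CPM. Also among them were Cacna1d at 2.89 and 36.4 CPM, Tex14 at 13.6 and 61.5 CPM, Tmem140 at 7.01 and 29.1 CPM, Fgd4 at 11.96 and 39.6 CPM and Arhgap24 at 19.8 and 55.0 CPM. For 9 of the 12 genes, 5 cells held over 50% of the UMIs in the WT library, with 94.8% for Spp1 and 86.4% for Hmox1. Of the 12, 5 were also at least 1.5-fold lower in knockout monocytes, where 3.72% of all genes were. In knockout cDC1 it was 5 as well, where 4.68% were. Cacna1d and Arhgap24 went the other way in cDC1, at 16.3 and 1.44 CPM and at 8.05 and 2.40 CPM.

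Markers of other cells moved with these genes. At least 3 UMIs over a small set of macrophage genes that includes Ms4a7 and Adgre1 were found in 12 of 146 knockout cDC2 (8.22%) and 17 of 69 WT cDC2 (24.6%). Those 17 cells held 94.8% of the Spp1, 87.2% of the Hmox1 and 71.7% of the Apoe UMIs of the WT library. Of 11 macrophage markers, the 3 C1q genes were limited by the gate and left out of the sum. The summed level of the others was 137 and 302 CPM, with Folr2 at 0 in the knockout library and Trem2 at 1.24 and 8.09 CPM. The same sum was 1318 and 1948 CPM in monocytes and 69.9 and 184 CPM in cDC1. Free RNA would give 24.3% and 22.3% of the Ctsb UMIs, 71.9% and 97.5% of the Apoe UMIs and 30.5% and 18.0% of the Lyz2 UMIs. Melanoma markers, with a summed level of 117 and 207 CPM over 11 genes, moved the same way, though Mitf among them, which myeloid cells also express, was level at 80.8 and 83.3 CPM. Their part in the result was not tested. Without the cells that carried NK or macrophage genes the Spp1 log2 ratio changed sign to 0.52, while the median of the lipid-associated macrophage list was -0.52, with 4 of 10 genes lower and 1 higher, against 4.37% and 12.3% of all genes. The monocyte list then had a median of -0.40, with 3 of 10 lower and 1 higher. Without Ly6c2 or Fcgr1 positive cells, 37 and 16 cDC2 were left and the macrophage list had a median of -0.077 over 6 genes.

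Antigen presentation genes differed by less. Of 14 MHC class II genes, 2 were at least 1.5-fold lower in knockout cDC2 and 0 higher, where 4.47% and 8.04% of all genes were. The list's median log2 ratio was -0.18, and it was -0.28 in monocytes and -0.28 in cDC1. H2-Aa had a ratio of 0.807 (0.786 to 0.829), H2-Eb1 one of 0.847 (0.824 to 0.871) and Cd74, the invariant chain gene, one of 0.883 (0.867 to 0.900). Ciita, which encodes the transactivator of these genes, went the other way at 891 and 645 CPM, a ratio of 1.38 (1.27 to 1.5). H2-Oa, which restrains peptide loading, was at 88.6 and 139.9 CPM. Per cell, class II genes had medians of 353 and 403 UMIs per 10000. Of 17 MHC class I genes, 0 passed 1.5-fold either way.

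Costimulatory genes were mostly level, with 1 of 15 higher and 3 lower, where 8.04% and 4.47% of all genes were. Cd86 and Cd40, which help to activate T cells, had ratios of 0.906 (0.805 to 1.02) and 1.02 (0.824 to 1.26). Of 15 compared, Pdcd1lg2, the gene of the PD-1 ligand PD-L2, was higher at 102 and 49.3 CPM, a ratio of 2.06 (1.55 to 2.78). Lower past 1.5-fold were Tnfsf9, the gene of the ligand of 4-1BB, at 23.9 and 54.2 CPM, Vsir, which encodes the inhibitory ligand VISTA, at 51.1 and 85.7 CPM, and Pvr, the gene of a ligand of TIGIT, at 9.89 and 24.3 CPM. Cd274, the gene of PD-L1, was level with a ratio of 0.956 (0.821 to 1.11).

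Cytokines and chemokines differed in part. Il15, a growth factor gene of NK and CD8 T cells, was past 1.5-fold at 50.3 and 25.9 CPM, as was Tnf at 54.8 and 34.0 CPM, while Il1rn, the gene of the interleukin 1 receptor antagonist, was at 10.3 and 28.3 CPM. Il12b, a subunit gene of interleukin 12, had 0 and 1 UMIs, so its level was not detectable at this depth. Of 9 chemokine genes compared, 4 were lower and 0 higher, against 4.47% and 8.04% of all genes. Ccl2 and Ccl7, which attract monocytes, were at 19.4 and 105 CPM and at 7.01 and 46.1 CPM, but free RNA would give all of their knockout and 41.2% and 52.5% of their WT UMIs. The chemokine median was -0.46 as counted and 0.087 with free RNA subtracted. Cxcl9, which attracts CXCR3-bearing T cells, was at 522 and 490.0 CPM.

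Transcription factor and interferon genes gave few differences, where 8.04% of all genes were higher and 4.47% lower. Of 26 dendritic cell transcription factors, Bcl11a was higher at 276 and 164 CPM, and 2 were lower, among them Nfil3. Irf4 had a ratio of 1.01 (0.745 to 1.39) and Irf8 one of 0.955 (0.791 to 1.16). Of 25 type I interferon response genes, Ifit3 at 72.6 and 119 CPM was the 1 lower gene and 0 were higher, and of 19 interferon gamma response genes 0 passed 1.5-fold. With the 109 and 53 cells that held Ly6c2 or Fcgr1 left out, 7 of the 15 type I and 9 of the 16 interferon gamma genes still compared were higher and 0 lower, from 37 and 16 cells, where 21.6% of all genes were higher and 8.03% lower. Among 15 cDC2 identity genes, Mgl2, Plet1 and Cd1d1 were higher and Clec4a2 was lower, against 8.04% and 4.47% of all genes. Mgl2, a galactose-binding lectin gene, was at 606 and 351 CPM with a ratio of 1.73 (1.55 to 1.93), and 5 cells held 57.4% of its WT UMIs.

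Several protein folding genes were higher in the knockout library. Of 13 genes of the unfolded protein response, 3 were higher and 0 lower, against 8.04% and 4.47% of all genes, with a median log2 ratio of 0.47. Pdia4, a disulfide isomerase gene, was at 77.9 and 35.6 CPM with a ratio of 2.19 (1.57 to 3.11). Of 19 immediate early and heat shock genes, 4 were higher and 0 lower, with a median of 0.34. The heat shock co-chaperone genes Dnaja1 and Dnajb1 were at 307 and 146 CPM and 47.8 and 18.6 CPM. In cDC2 without a Mgl2 UMI the median of the heat shock list was -0.28, of opposite sign, and in those with one it was 0.96. Oxidative phosphorylation genes had 0 of 26 past 1.5-fold. Cell cycle genes had 4 of 25 higher and 1 lower, with a median of 0.016, and 13 of 22 higher and 0 lower with a median of 0.77 once cells that carried NK or macrophage genes were left out, where 12.3% of all genes were higher and 4.37% lower. Glycolysis and hypoxia genes had 3 of 27 higher and 2 lower, shares near those of all genes, with the phosphofructokinase gene Pfkp at 551 and 333 CPM.

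**Figure D4:**
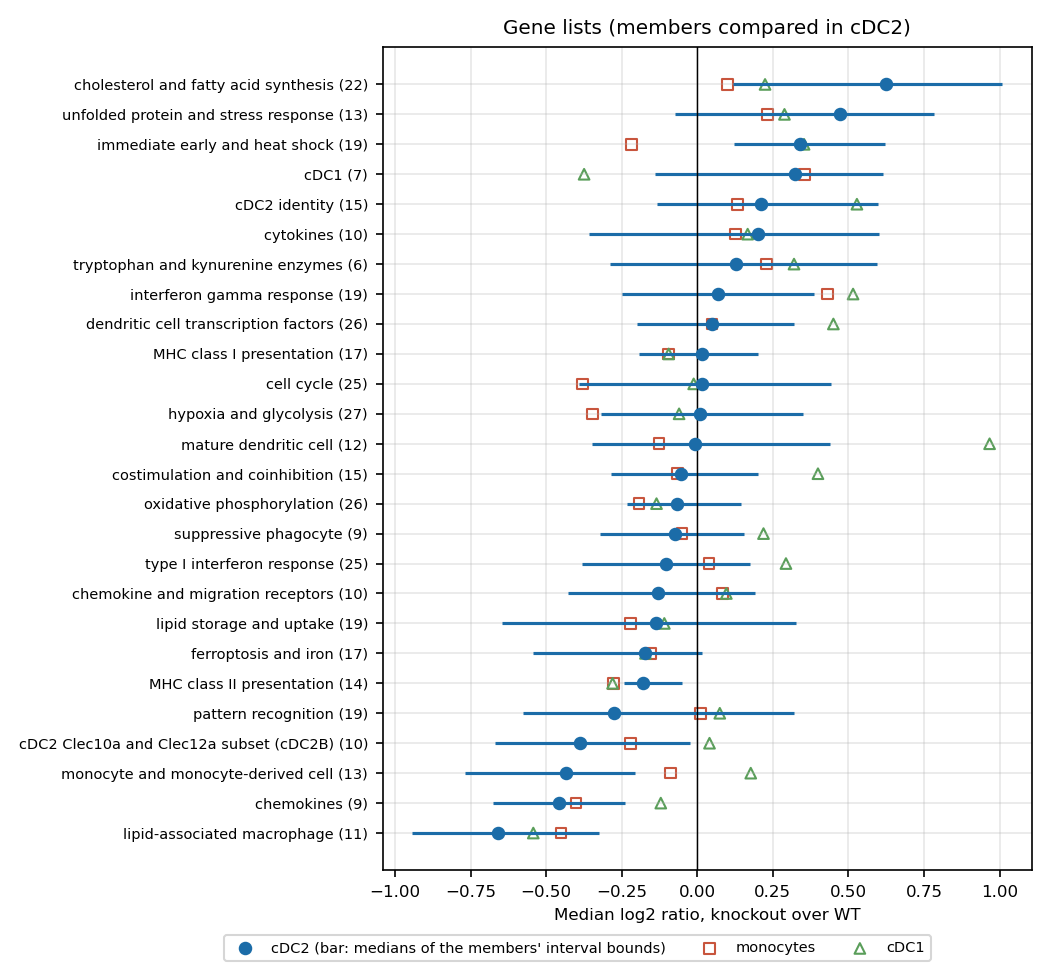
Median log2 ratio of knockout over WT for each gene list with at least 5 members compared in cDC2 (filled circles, with bars from the median lower to the median upper counting bound of the members), beside the same list in monocytes (squares) and cDC1 (triangles). Sterol and fatty acid synthesis lies farthest to the right at 0.62 and lipid-associated macrophage genes farthest to the left at -0.66.

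cDC2 were divided by whether they held a Mgl2 UMI. Genes that led this and the other divisions were picked for the same direction in both libraries, so their direction is a description and no check of one library by the other. A Mgl2 UMI was found in 73 of 146 (50%) and 31 of 69 (44.9%) cells, or in 34.5% and 29.9% after thinning to 3000 UMIs. It was found in 1.42% and 0.498% of thinned monocytes. Cells with Mgl2 had more UMIs than cells without, with medians of 19973 against 11000 and of 16635 against 14950 UMIs, and a gene is found more readily in a deeper cell. The levels that follow are in CPM.

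Ccl17, a chemokine gene that attracts CCR4-bearing T cells, was at 638 against 49.7 CPM in the knockout library and 469 against 11.7 CPM in the WT library (cells with against cells without Mgl2). Its UMIs came from 41 knockout and 4 WT cells. Plet1 was at 265 against 20.1 CPM in the knockout library and 77.6 against 4.39 CPM in the WT library. Ear2, a ribonuclease gene, was at 123 against 19.0 CPM in the knockout library and 128 against 23.4 CPM in the WT library, as was Axl, a receptor kinase gene of dying-cell uptake, at 66.3 against 20.1 CPM in the knockout library and 75.8 against 13.2 CPM in the WT library. The adaptor gene Bcar3 and the transcription factor gene Creb5 went the same way, with Creb5 at 682 against 203 CPM in the knockout library and 572 against 105 CPM in the WT library. Pdcd1lg2 was at 138 against 45.4 CPM in the knockout library and 68.6 against 33.7 CPM in the WT library.

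Cells without Mgl2 held more of other genes. Flt3 was at 54.8 against 112 CPM in the knockout library and 23.5 against 98.1 CPM in the WT library. Cd7 stood at 41.2 against 101 CPM in the knockout library and 18.1 against 89.3 CPM in the WT library. In both genes the cells without Mgl2 were at least 1.5-fold higher in both libraries. Klf12, a transcription factor gene, had 11 against 56 UMIs in the knockout library and 0 against 69 in the WT library. Apoe was at 17.6 against 156 CPM in the knockout library and 36.1 against 157 CPM in the WT library. Kmo and Zbtb46 did not follow the division, and neither passed 1.5-fold. Kmo was at 443 against 527 CPM in the knockout library and 334 against 335 CPM in the WT library, and Zbtb46 at 271 against 248 CPM in the knockout library and 217 against 165 CPM in the WT library. Lyz2 followed it in the knockout library alone by more than 1.5-fold, at 122 against 466 CPM in the knockout library and 439 against 513 CPM in the WT library.

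**Figure D5:**
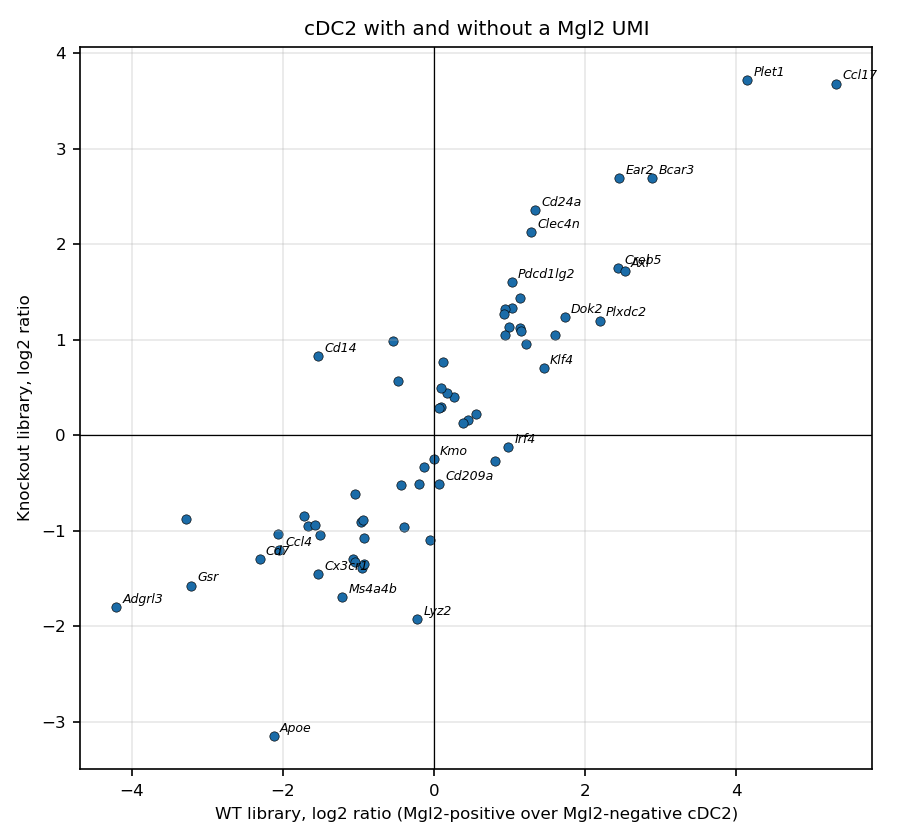
Log2 ratio of cells with over cells without a Mgl2 UMI, for leading and listed genes, in the WT library (horizontal axis) and the knockout library (vertical axis). Ccl17, Plet1, Ear2 and Bcar3 lie in the upper right corner, high in Mgl2-positive cells of both libraries, and Apoe, Adgrl3 and Cd7 in the lower left. Klf12, at 0 in one of the sets, is not drawn.

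Dividing cells were a second source of variation. Mki67 or Top2a, both genes of dividing cells, had a UMI in 40 of 146 (27.4%) and 23 of 69 (33.3%) cDC2, with medians of 20532 against 12793 and of 22621 against 14224 UMIs per cell. Stmn1, a microtubule regulator gene, was at 319 against 7.22 CPM in the knockout library and 331 against 7.55 CPM in the WT library. Among the leading lower genes of these cells were chemokine genes and an interleukin gene. Cxcl9 was at 196 against 715 CPM in the knockout library and 188 against 752 CPM in the WT library. Il1b, the interleukin 1 beta gene, stood at 75.4 against 329 CPM in the knockout library and 122 against 399 CPM in the WT library. Cxcl10, another CXCR3 ligand gene, showed 121 against 578 CPM in the knockout library and 169 against 462 CPM in the WT library. Clec10a was lower too, at 249 against 448 CPM in the knockout library and 251 against 386 CPM in the WT library.

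cDC2 were also divided by Ly6c2 and by Flt3. Cells with a Ly6c2 UMI, 54 of 146 and 25 of 69, had Lyz2 at 473 against 131 CPM in the knockout library and 897 against 247 CPM in the WT library. The lipopolysaccharide co-receptor gene Cd14 was at 35.9 against 11.1 CPM in the knockout library and 54.2 against 10.1 CPM in the WT library. Timd4, a phosphatidylserine receptor gene, was lower there, at 15.7 against 60.6 CPM in the knockout library and 6.78 against 90.7 CPM in the WT library. Cells with a Flt3 UMI, 69 of 146 and 28 of 69, had Cd7 at 108 against 19.3 CPM in the knockout library and 99.4 against 22.3 CPM in the WT library. In these cells Cd14 was lower, at 8.89 against 32.0 CPM in the knockout library and 10.7 against 38.6 CPM in the WT library. Lyz2 was lower in the knockout library alone, at 128 against 390.4 CPM in the knockout library and 483 against 477 CPM in the WT library, and Ccr2, a monocyte chemokine receptor gene, differed by less than 1.5-fold in both libraries. Cyp7b1, one of the leading higher genes of the knockout library, was at 357 against 74.0 CPM in the knockout library and 119 against 14.8 CPM in the WT library. Hmox1 was lower in Flt3-positive cells, at 8.89 against 40.4 CPM in the knockout library and 21.3 against 168 CPM in the WT library.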

How the data were processed

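The deposited values are raw UMI counts of 32285 genes for every barcode of a library, before any choice of cells. The matrices come from Cell Ranger 7.2.0, per the file headers, on build mm10, per the submitters' processing notes, and no source used here names their annotation. Barcodes with at least 1000 UMIs, 300 genes and at most 10% mitochondrial UMIs were kept; 2 and 3 cells that otherwise met the cDC2 gate failed the mitochondrial limit. No doublet was removed.

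UMIs were summed per population and library and divided by the total. Genes with at least 50 UMIs over both libraries were compared. Levels carry exact Poisson, shares exact Clopper-Pearson and ratios exact conditional intervals (scipy 1.17.1). These cover counting error only and take no account of UMIs that lie in few cells. On simulated Poisson counts for cDC2 (7412 genes, 200 changed 2-fold), the interval covered the set ratio in 96.1% of the unchanged genes, and 95.4% of changed genes but also 3.88% of unchanged genes passed 1.5-fold. The simulation used the counting model that the intervals assume, so it checks the computation and gives no error rate for the real counts. Scrublet ran in scanpy 1.11.5.

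Named genes had a UMI in at least 10% of cells of the higher library and under 25% free RNA there, leaving out gate genes, Gm and Rik models, Xist, Y-linked and antigen receptor genes, and genes of haemoglobin, ribosomes and mitochondria, ranked by the interval bound nearest to 1, 12 each way. Genes of the lists may be named beside their counts. Some single genes counted among them are not reported here. The gate, its neighbours, the gene lists and these rules were chosen with earlier results of these data known; 6 listed names were not found in the files. The divisions of cDC2 by Mgl2, Flt3, Ly6c2 and Mki67 or Top2a rest on their own UMIs.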

Additional observations from a re-analysis of the deposited data

Results flagged for a closer look

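A few genes were at least 1.5-fold apart between the libraries in one direction in cDC2 and in the other direction in a neighbouring population, 9 of 6913 genes against monocytes and 24 of 6984 against cDC1. With 1 library per group the difference between populations was not tested. The 5 genes with the largest gap between the log2 ratios of the populations are given here. Cacna1d, a calcium channel gene, had the largest gap to cDC1, at 7.16, with 2.89 and 36.4 CPM in cDC2 and 16.3 and 1.44 CPM in cDC1, and 5 cells held 95.6% of its UMIs in WT cDC2. Ccl17 had a gap to monocytes of 2.84, with 409 and 217 CPM in cDC2, where all WT UMIs came from 4 cells, and 3.20 and 12.2 CPM in monocytes. Aff3, a nuclear protein gene, had a gap to monocytes of 2.71, with 160.4 and 49.3 CPM in cDC2 and 4.96 and 9.98 CPM in monocytes. Thbs1, the thrombospondin gene, had a gap to cDC1 of 2.63 and was found in only 5 and 4 cDC2, at 11.96 and 23.4 CPM. Fosb, an immediate early gene, had a gap to monocytes of 2.30, with 34.2 and 14.6 CPM in cDC2, from 12 and 9 cells, and 8.58 and 17.9 CPM in monocytes.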

How the results depend on the processing

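No paired analysis was possible because each group is 1 library, and no replicate could be left out. The higher share of cDC2 in the knockout library was 0.76 as a log2 ratio, lay between 0.66 and 1.09 under the other alternatives, and was 1.27 with a gate per 10000 UMIs. Counts of genes past 1.5-fold followed the filter: they were 1073 higher and 688 lower with at least 20 UMIs, 160 and 60 with at least 200, and 3657 and 2653 with no filter beyond 1 UMI, and 969 were higher with the mean of per-cell CPM. Under the other alternatives 510 to 825 were higher and 225 to 412 lower.

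The sterol and fatty acid synthesis median was above 0 in every alternative run, from 0.35 in Mgl2-positive to 0.76 in Mgl2-negative cDC2. The lipid-associated macrophage median was -0.29 without dividing cells, -0.077 without Ly6c2 or Fcgr1 and -0.027 in Mgl2-positive cells. The MHC class II median was -0.27 without dividing cells, -0.26 in Mgl2-negative cells and -0.27 with per-cell means. The monocyte median was -0.20 with per-cell means and 0.021, of opposite sign, in Mgl2-negative cells. The immediate early and heat shock median was 0.96 in Mgl2-positive and -0.28 in Mgl2-negative cells. The chemokine median changed sign to 0.56 without Ly6c2 or Fcgr1, 0.12 in Mgl2-positive cells and 0.087 with free RNA subtracted.

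Single lower genes were the least stable, and 10 values over the named genes changed sign. Without Ly6c2 or Fcgr1 positive cells Spp1 was at 0.48, Tex14 at 0.00404 and Fcgr4 at 1.74. Without dividing cells Spp1 was at 0.61, Cacna1d at 0.021, Hmox1 at 0.27 and Fgd4 at 0.94. Without NK or macrophage gene cells Spp1 was at 0.52, and in Mgl2-positive cells Hmox1 was at 0.58 and Arhgap24 at 0.22. The cause of these shifts was not tested, and all 12 higher genes kept their direction. Divisions by Mgl2, the exclusion of NK or macrophage gene cells and the relaxed limit on Xcr1 and Clec9a were chosen after seeing the data. With 69 WT cells, genes under about 50 UMIs give ratios too imprecise to read, and 1 library per group leaves the spread between tumours unknown.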
